A study of Homo sapiens
Mus musculus and Homo sapiens with 2 samples.

Results

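The cells described here were 740 HEK293T cells rich in transcripts of the G2 and M phases of the cell cycle, out of 2952 HEK293T cells with a labelling group and 13711 cells in the series. They were chosen by a score. For each cell, the whole counts of TOP2A, MKI67, CENPF, CCNB1, ASPM and TPX2 were summed and divided by all whole counts of the cell. The top 25% of each labelling group, 740 cells in all, is called G2/M-high, and the bottom 50% of the same group, 1478 cells in all, is called G2/M-low and served as the comparison. The 6 score genes were left out of all tests.

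The series profiled single cells by sci-fate, a combinatorial-indexing RNA assay in which cells take up 4-thiouridine (S4U), a uridine analogue, and fixed cells are then treated with iodoacetamide, so that S4U in RNA made during labelling reads as a base change. HEK293T is a human embryonic kidney line that carries adenoviral and polyomaviral oncoproteins, which inactivate tumour suppressors of the cell cycle. It was mixed with NIH/3T3, a mouse fibroblast line, and labelled with 200 µM S4U for 6 h. Of the G2/M-high cells, 229 had received both S4U and iodoacetamide, 257 iodoacetamide without S4U, 114 S4U without iodoacetamide, and 140 neither. The G2/M-low cells of these 4 labelling groups numbered 457, 513, 228 and 280, and values by group are given in this order throughout. No gene was deleted or silenced in either class. The other sample, A549, is a human line from a lung adenocarcinoma. It had been given the glucocorticoid dexamethasone (100 nM) 0, 2, 4, 6, 8 or 10 h before harvest, and S4U (200 µM) over the last 2 h. The label of the mixture also lists dexamethasone, which the treatment protocol gives to A549 alone, so the HEK293T cells are taken here as unexposed.

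In a dividing cell, genes for DNA replication are transcribed as the cell leaves G1 and enters S phase, mainly under E2F factors. Genes for mitosis follow in G2 and M phase under the DREAM and MuvB complexes with MYBL2 and FOXM1, and their products drive nuclear envelope breakdown, chromosome condensation, spindle assembly and the separation of sister chromatids. The anaphase promoting complex then marks cyclins and securin for destruction, and the cell returns to G1.

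The score itself separated the classes by construction. TOP2A, the topoisomerase that untangles DNA before chromosome segregation, had 484, 1007, 432 and 924 CPM (the counts of a gene scaled to the same total in every sum) in G2/M-high cells, against 117, 257, 94.6 and 226 CPM in G2/M-low cells. CCNB1, the cyclin B that activates CDK1 at mitotic entry, had 352, 338, 433 and 379.8 CPM in G2/M-high cells, against 77.7, 96.2, 89.4 and 85.4 CPM in G2/M-low cells. Across the 6 score genes and 4 groups, the log2 ratio of high over low CPM ran from 1.68 to 2.28. The median score was 0.426%, 0.532%, 0.406% and 0.502% of a cell's counts in G2/M-high cells, against 0.114%, 0.164%, 0.102% and 0.141% in G2/M-low cells. These values chose the cells and carry no test. The score is a continuous range rather than a type. The lowest G2/M-high cell and the highest cell just outside had 0.3132% and 0.3132% in the first group, 0.3887% and 0.3887% in the second, 0.302% and 0.301% in the third, and 0.368% and 0.367% in the fourth. Between 46 and 99 cells of a group lay within 10% of the cut. A gene whose transcripts vary with those 6 from cell to cell differs between the classes through the way they were cut. The tests below therefore say which genes vary with the score on average over the 4 groups. A call does not require the same direction in every group.

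HEK293T cells held between 634 and 47369 whole counts, with a median of 8325.5, and summed counts ran from 1466294 to 2673647 in the G2/M-high sums and from 2123855 to 4380307 in the G2/M-low sums. The 4 labelling groups are not stated to be separate cultures, so p-values measure only the spread between them, which may be technical. No reverse transcription well held cells of more than 1 group, so well and labelling group cannot be told apart. Of 6207 mixture cells with a group, 166 (2.67%) were called mixed in species by the authors and were left out. Doublets of 2 HEK293T cells cannot be seen this way. Mouse counts made up 0.807%, 0.397%, 0.354% and 0.362% of the G2/M-high sums, against 0.666%, 0.398%, 0.396% and 0.452% of the G2/M-low sums. Over all HEK293T cells with a group, mouse mitochondrial genes made up 55.0% of the mouse counts. The source of these counts was not tested, so the mouse share is not a measure of fibroblast RNA alone. The 18 markers of mouse fibroblasts summed to 88.9, 11.97, 15.0 and 19.2 CPM in G2/M-high cells and to 40.6, 18.7, 25.4 and 40.1 CPM in G2/M-low cells, higher in G2/M-high cells in the group with S4U and iodoacetamide and lower in the other 3. Of 15 markers of A549 cells, 3 had no count in any HEK293T sum and the others had up to 28, too few for the test. All 13 HEK293T markers passed the filter on low counts. The 37 mitochondrially encoded human genes were listed at 0 in every sum and give no measure of mitochondrial RNA. The libraries share 664 index combinations with the A549 library.

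Of 12863 genes tested, 1274 (9.9%) were higher and 1335 (10.4%) lower in G2/M-high cells at an adjusted p under 0.05 in the edgeR quasi-likelihood test on summed counts with the labelling group as a block, 20.3% of genes in all. The median log2 fold of all genes was -0.0019. The shares of 9.9% risen and 10.4% fallen are the background for the counts of each list below. Without the group given iodoacetamide and no S4U, 794 genes were higher and 962 lower, and DESeq2 called 379 higher and 380 lower. The 5 lists of G2 and M genes held 137 genes beyond the score genes, and all 137 passed the filter on low counts. Of these, 99 rose, 11 fell and 27 did not pass the test, with a median log2 fold of 0.68. Their summed level was 21674, 25954, 23831 and 25446 CPM in G2/M-high cells, against 14214, 17428, 14622 and 16356 CPM in G2/M-low cells, so the lowest G2/M-high sum exceeded the highest G2/M-low sum. DESeq2 called 87 risen, and leaving out 1 group left between 92 and 96. Gene by gene, 82 of the 137 had all 4 G2/M-high values above all 4 G2/M-low values, against 4.8% of all genes tested, and 7 had them all below, against 5.56%. The lists and the members' direction were chosen with results of these data known, so the counts describe them and do not test them.

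**Figure D1:**
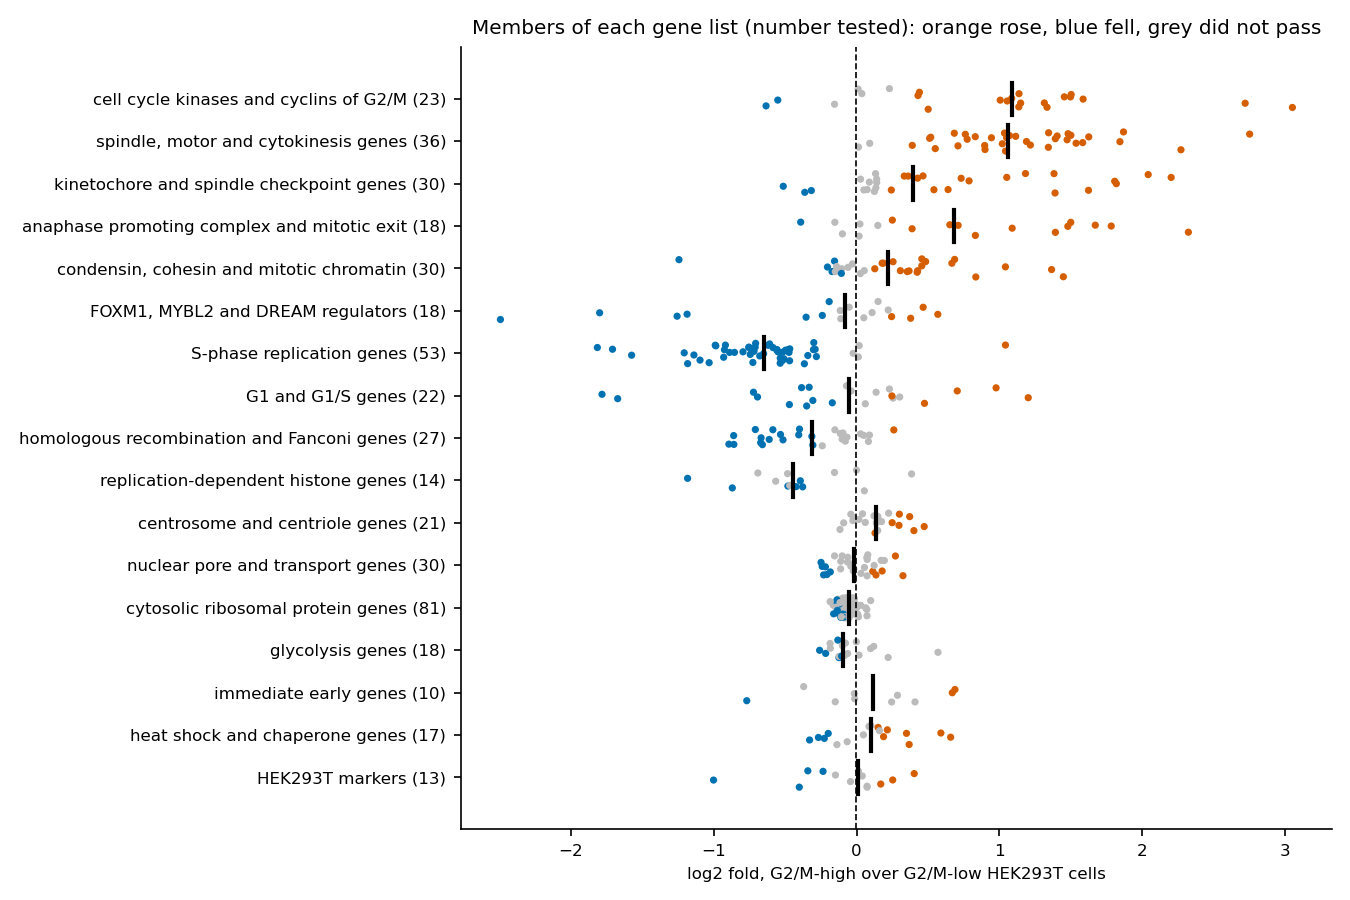
Log2 fold of whole RNA in G2/M-high over G2/M-low HEK293T cells (horizontal axis) for each tested member of 17 gene lists, 1 point a gene, with the number tested in brackets. Orange points rose, blue points fell and grey points did not pass at an adjusted p of 0.05, black bars are list medians and the dashed line is the median of all genes. The kinase and spindle lists have the highest medians, 1.09 and 1.06, and the S-phase list has the lowest, -0.65.

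Among the kinases and cyclins that start and steer mitosis, 17 of 23 rose and 2 fell, with a median log2 fold of 1.09. AURKA (ENSG00000087586.13), the kinase that matures centrosomes and activates PLK1, had 177, 199, 201 and 206 CPM in G2/M-high cells, against 15.98, 33.5, 19.9 and 21.0 CPM in G2/M-low cells (log2 fold 3.05 ± 0.094, adjusted p = 4.71e-51, the ± being the standard error throughout). PLK1 (ENSG00000166851.10), which acts at centrosomes, kinetochores and in cytokinesis, had 126, 168, 187 and 202 CPM in G2/M-high cells, against 13.4, 32.4, 24.1 and 30.7 CPM in G2/M-low cells (log2 fold 2.72 ± 0.093, adjusted p = 4.08e-47). For both genes every G2/M-high value lay above every G2/M-low value. CKS2, a small partner of cyclin-dependent kinases, averaged 314 ± 68.2 CPM in G2/M-high cells and 102 ± 9.33 CPM in G2/M-low cells (SD, n = 4 groups), a log2 fold of 1.59. CDK1, the kinase that drives mitotic entry, had 213, 259, 264 and 231 CPM in G2/M-high cells, against 85.4, 132, 101 and 112 CPM in G2/M-low cells (log2 fold 1.15 ± 0.065, adjusted p = 5.8e-30), and its partners CCNA2 and CCNB2 had log2 folds of 1.14 and 1.09. The checkpoint kinases BUB1, TTK and BUB1B had log2 folds of 1.50, 1.50 and 1.05, and the phosphatase CDC25C, which removes the inhibitory phosphates from CDK1, one of 1.01. The fallen members were MASTL (log2 fold -0.55, adjusted p = 8.73e-07), the kinase that holds a phosphatase of CDK1 sites in check, and PKMYT1 (log2 fold -0.63, adjusted p = 2.44e-05), an inhibitory kinase of CDK1. WEE1, the other inhibitory kinase of CDK1, had a log2 fold of 0.01 and did not pass (adjusted p = 0.958).

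Genes of the spindle, its motors and cytokinesis had the largest share of risen members of the lists, 34 of 36, with none fallen and a median log2 fold of 1.06. PSRC1 (ENSG00000134222.12), a microtubule-binding protein of the spindle, had 41.5, 43.8, 71.5 and 66.0 CPM in G2/M-high cells, against 5.43, 7.12, 11.4 and 8.96 CPM in G2/M-low cells (log2 fold 2.75 ± 0.15, adjusted p = 3.75e-31). KIF20A (ENSG00000112984.7), a kinesin of the central spindle needed for cytokinesis, had 51.8, 81.2, 71.5 and 90.6 CPM in G2/M-high cells, against 10.9, 22.3, 7.57 and 16.9 CPM in G2/M-low cells (log2 fold 2.27 ± 0.13, adjusted p = 6.15e-30). In both, the lowest G2/M-high group exceeded the highest G2/M-low group. KIF14, a kinesin of the midbody, averaged 268 ± 69.7 CPM in G2/M-high cells and 72.6 ± 18.9 CPM in G2/M-low cells (SD, n = 4 groups), and HMMR, a spindle assembly factor, averaged 289 ± 58.4 CPM in G2/M-high cells and 78.4 ± 14.5 CPM in G2/M-low cells. Other risen members were KIF23 and RACGAP1 of the centralspindlin complex (log2 folds 1.58 and 1.19), PRC1, which bundles antiparallel microtubules (1.54), KIF11, which pushes spindle poles apart (1.07), and ANLN and ECT2 of the cleavage furrow (1.22 and 1.05). The members that did not pass were HAUS6 and HAUS8 of the augmin complex, which branches spindle microtubules, with log2 folds of 0.09 and 0.01. The count of 34 was the same with DESeq2 and without any 1 group, and 33 without the block.

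Of 30 kinetochore and spindle checkpoint genes, 18 rose and 3 fell, with a median log2 fold of 0.39. CENPE (ENSG00000138778.7), the kinetochore kinesin that brings chromosomes to the metaphase plate, had 571, 972, 677 and 1029 CPM in G2/M-high cells, against 130.4, 232, 136 and 202 CPM in G2/M-low cells (log2 fold 2.20 ± 0.047, adjusted p = 6.49e-66). CENPA (ENSG00000115163.10), the histone H3 variant that marks centromeres, had 60.9, 76.3, 83.2 and 79.1 CPM in G2/M-high cells, against 17.6, 21.6, 16.1 and 15.2 CPM in G2/M-low cells (log2 fold 2.04 ± 0.12, adjusted p = 1.2e-28). SGOL2, a shugoshin that protects sister cohesion at centromeres, averaged 283 ± 34.5 CPM in G2/M-high cells and 78.3 ± 10.5 CPM in G2/M-low cells (SD, n = 4 groups). The chromosomal passenger genes CDCA8, INCENP and BIRC5 had log2 folds of 1.81, 1.39 and 0.73, and NDC80 and NUF2 of the microtubule-binding complex 1.62 and 1.05. The list was mixed. DSN1, a subunit of the MIS12 complex of the kinetochore, fell by 0.51 on the log2 scale. MLF1IP and CENPK, which sit on centromeric chromatin throughout the cycle, fell by 0.36 and 0.32, and 9 members, among them SPC24, SKA3 and ZWILCH, did not pass. Thus within 1 list log2 folds ran from -0.51 to 2.20.

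Of 18 genes of the anaphase promoting complex and mitotic exit, 12 rose and 1 fell, with a median log2 fold of 0.68. UBE2C (ENSG00000175063.12), the ubiquitin-conjugating enzyme of this complex, had 80.3, 153, 234 and 191 CPM in G2/M-high cells, against 16.9, 33.8, 38.8 and 38.6 CPM in G2/M-low cells (log2 fold 2.32 ± 0.088, adjusted p = 1.75e-43). The first group, with S4U and iodoacetamide, was the lowest in both classes, and its G2/M-high value still exceeded every G2/M-low value. CDCA3, which takes part in the destruction of mitotic inhibitors, averaged 63.4 ± 13.6 CPM in G2/M-high cells and 18.3 ± 2.88 CPM in G2/M-low cells, and FAM64A, a target of the complex, averaged 37.0 ± 7.72 CPM in G2/M-high cells and 11.1 ± 1.92 CPM in G2/M-low cells (SD, n = 4 groups). The activators CDC20 and FZR1 had log2 folds of 1.48 and 0.65, and PTTG1 (securin) and ESPL1 (separase), its partner that cuts cohesin, 0.71 and 1.09. Of the core subunits, CDC27 and CDC16 rose (0.83 and 0.25), ANAPC4 fell by 0.39 on the log2 scale, and CDC23, ANAPC1 and ANAPC5 had log2 folds of 0.15, 0.02 and -0.15 and did not pass.

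Condensins, cohesins and chromatin proteins moved less: 18 of 30 rose and 5 fell, with a median log2 fold of 0.22. KPNA2, an importin that carries spindle factors, averaged 350.5 ± 43.5 CPM in G2/M-high cells and 126 ± 10.6 CPM in G2/M-low cells (SD, n = 4 groups), and CDCA2, which brings a phosphatase to anaphase chromosomes, averaged 148 ± 21.8 CPM in G2/M-high cells and 55.5 ± 5.91 CPM in G2/M-low cells. The condensin genes SMC4, SMC2, NCAPD2, NCAPG and NCAPH rose by log2 folds of 0.69, 0.19, 0.67, 0.84 and 0.46, and NCAPH2 of condensin II by 0.43, whereas NCAPG2 and NCAPD3 of condensin II had log2 folds of -0.10 and -0.15 and did not pass. UHRF1, which guides DNA methylation to newly replicated DNA and belongs to S phase by that role, had 18.9, 21.2, 19.3 and 27.2 CPM in G2/M-high cells, against 40.9, 55.3, 43.1 and 63.7 CPM in G2/M-low cells (log2 fold -1.24 ± 0.13, adjusted p = 2.94e-14). The remaining fallen members, the cohesin subunits STAG1 and STAG2, DEK and H2AFZ, fell by between 0.11 and 0.20 on the log2 scale.

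**Figure D2:**
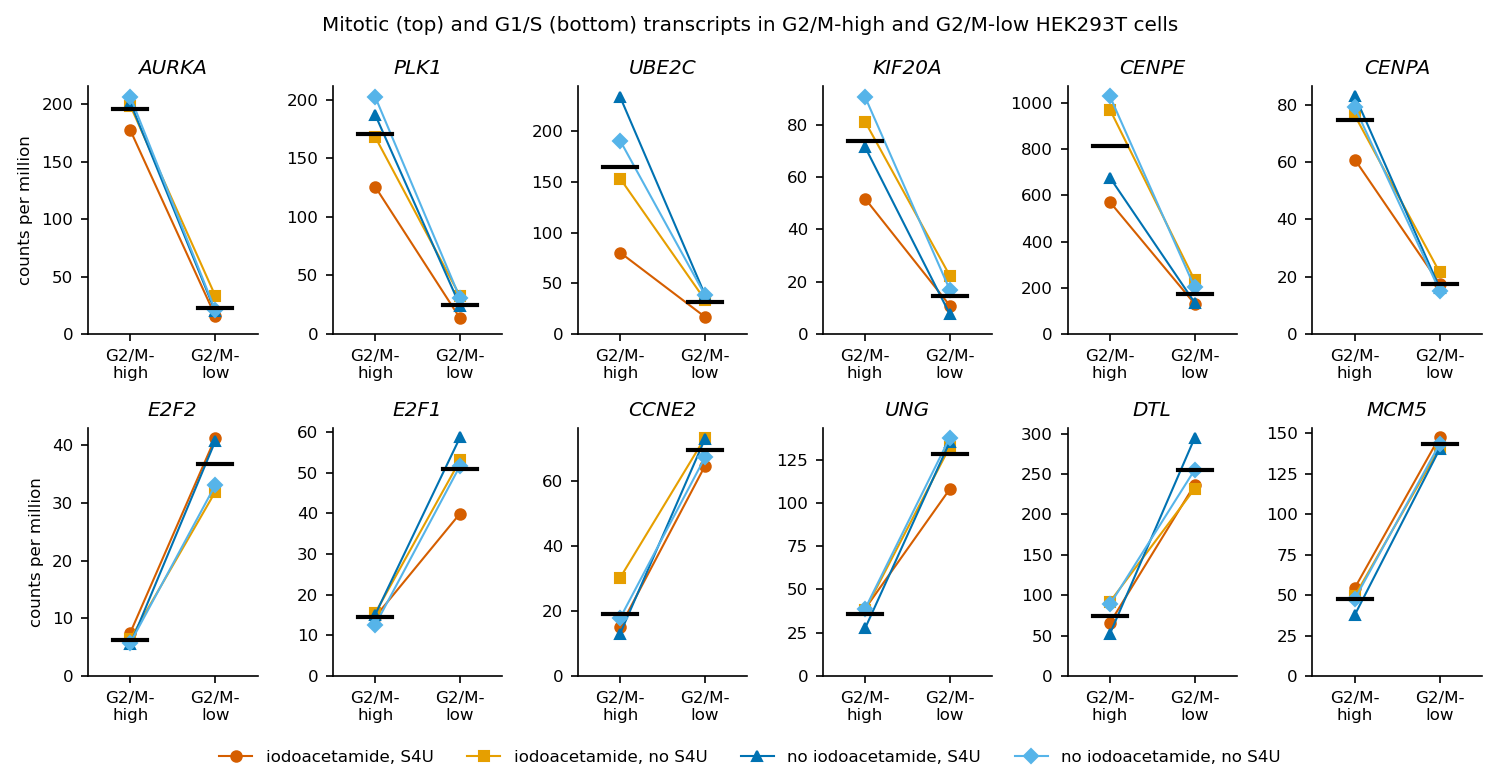
CPM (vertical axis, separate scale for each gene) in G2/M-high (left) and G2/M-low (right) sums of HEK293T cells, with 1 coloured point for each of 4 labelling groups joined across the classes and a black bar at their mean. In the 6 mitotic genes of the top row all G2/M-high points lie above all G2/M-low points, and in the 6 genes of the bottom row all lie below.

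The regulators that switch these genes on and off went both ways. Of 18 tested regulators of the FOXM1, MYBL2 and DREAM list of 19, 4 rose and 7 fell, with a median log2 fold of -0.08. FOXM1, the forkhead factor of the G2/M programme, had 134, 109, 129 and 114 CPM in G2/M-high cells, against 91.4, 79.2, 85.7 and 69.3 CPM in G2/M-low cells (log2 fold 0.57 ± 0.077, adjusted p = 2.05e-09), and MYBL2 had a log2 fold of -0.11 and did not pass (adjusted p = 0.209). The other risen members were the pocket protein RBL2 (0.47), the repressor-complex E2F E2F5 (0.38) and the MuvB subunit LIN9 (0.25). E2F2 (ENSG00000007968.6), an activator of G1/S genes, had 7.55, 6.42, 5.50 and 5.76 CPM in G2/M-high cells, against 41.2, 31.9, 40.7 and 33.1 CPM in G2/M-low cells (log2 fold -2.49 ± 0.18, adjusted p = 2.72e-22), the lowest log2 fold of all named genes. E2F1 (ENSG00000101412.9), also an activator, had 14.6, 15.5, 15.1 and 12.6 CPM in G2/M-high cells, against 40.0, 53.0, 58.7 and 51.7 CPM in G2/M-low cells (log2 fold -1.80 ± 0.14, adjusted p = 2.02e-20). E2F7 and E2F8, atypical repressors that switch G1/S genes off late in S phase, fell by 1.19 and 1.26 on the log2 scale, and E2F3 by 0.35. Without the group that had neither S4U nor iodoacetamide, and with DESeq2, 2 of the list rose in place of 4.

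S-phase genes went the opposite way. Of 53 replication genes tested, 49 fell and 1 rose, with a median log2 fold of -0.65, and their summed level was 6422, 6916, 5789 and 6129 CPM in G2/M-high cells, against 9124, 10187, 9292 and 9963 CPM in G2/M-low cells. UNG (ENSG00000076248.6), the glycosylase that removes uracil from DNA, had 38.8, 38.1, 27.5 and 38.8 CPM in G2/M-high cells, against 108, 132, 135 and 138 CPM in G2/M-low cells (log2 fold -1.82 ± 0.095, adjusted p = 1.73e-32). DTL (ENSG00000143476.13), the ubiquitin ligase receptor that destroys the licensing factor CDT1 in S phase, had 65.8, 91.8, 52.3 and 88.5 CPM in G2/M-high cells, against 237, 232, 295 and 255 CPM in G2/M-low cells (log2 fold -1.71 ± 0.078, adjusted p = 5.59e-37). MCM5 (ENSG00000100297.11), a subunit of the replicative helicase, had 54.5, 49.5, 37.8 and 47.7 CPM in G2/M-high cells, against 148, 141, 140.1 and 143 CPM in G2/M-low cells (log2 fold -1.58 ± 0.085, adjusted p = 2.84e-31). In each of the 3 genes all G2/M-high values lay below all G2/M-low values, as in 40 of the 53. This held for 5.56% of all genes tested. The other helicase subunits MCM2, MCM3, MCM4, MCM6 and MCM7 had log2 folds of -1.03, -0.71, -0.68, -1.096 and -0.48 on the log2 scale. PCNA, the sliding clamp, fell by 0.71, and RRM2, of ribonucleotide reductase, by 0.53. TYMS, RRM1 and TIMELESS had log2 folds of 0.02, 0.01 and -0.02 and did not pass. The risen member was DBF4, which activates the origin-firing kinase CDC7. It had 239, 200.2, 237 and 205 CPM in G2/M-high cells, against 106, 97.6, 116 and 109 CPM in G2/M-low cells (log2 fold 1.04 ± 0.065, adjusted p = 3.67e-27), while CDC7 itself fell by 0.30. DESeq2 called 45 of the list fallen.

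Of 22 tested genes of G1 and the G1/S passage (of 24), 5 rose and 10 fell, against 9.9% and 10.4% of all genes tested. Both cyclin E genes, which start S phase with CDK2, fell: CCNE2 had 15.1, 30.2, 13.1 and 17.8 CPM in G2/M-high cells, against 64.6, 73.2, 72.9 and 67.2 CPM in G2/M-low cells (log2 fold -1.78 ± 0.13, adjusted p = 5.8e-23), and CCNE1 averaged 9.53 ± 3.69 CPM in G2/M-high cells and 31.3 ± 6.33 CPM in G2/M-low cells (SD, n = 4 groups). MYC, CDC25A and CCND1 fell by 0.72, 0.69 and 0.47 on the log2 scale. Of the inhibitors of G1 kinases, CDKN2C and CDKN1B rose. CDKN2C, an inhibitor of CDK4 and CDK6, had 38.3, 51.7, 65.3 and 60.2 CPM in G2/M-high cells, against 18.5, 24.6, 24.6 and 24.1 CPM in G2/M-low cells (log2 fold 1.20 ± 0.12, adjusted p = 1.68e-14), and CDKN1B, an inhibitor of cyclin E with CDK2, had a log2 fold of 0.98. CCNG2, GADD45A and MDM2 also rose (0.71, 0.48 and 0.25), and CDKN1A, with a log2 fold of 0.26, did not pass (adjusted p = 0.401). DESeq2 called 3 risen and 5 fallen, and 6 fell without the group given iodoacetamide and no S4U.

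Of 27 genes of homologous recombination and the Fanconi pathway, which repair broken and stalled replication forks, 15 fell and 1 rose, with a median log2 fold of -0.31. BRIP1, a helicase partner of BRCA1, averaged 172 ± 7.43 CPM in G2/M-high cells and 315 ± 30.2 CPM in G2/M-low cells (SD, n = 4 groups). RAD54L, a motor protein of recombination, fell by 0.86 on the log2 scale, and BRCA1 by 0.67. The risen member was NBN, of the complex that senses DNA breaks (log2 fold 0.26), which DESeq2 did not call. FANCD2, FANCI, BRCA2 and ATM had log2 folds between -0.11 and 0.09 and did not pass.

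Replication-dependent histone genes, whose mRNAs mostly end in a stem loop and are caught only in part by poly(A) priming, were measured thinly. Of 36, 14 passed the filter on low counts, 6 fell and none rose. HIST1H1E, a linker histone, had 179, 211, 99.0 and 99.5 CPM in G2/M-high cells, against 282, 245, 126 and 172 CPM in G2/M-low cells (log2 fold -0.48 ± 0.066, adjusted p = 3.8e-09), and HIST1H1D averaged 33.7 ± 15.98 CPM in G2/M-high cells and 62.0 ± 21.7 CPM in G2/M-low cells (SD, n = 4 groups). The classes overlapped across groups in all 14. HIST1H2AH had 5.93, 5.67, 0 and 1.57 CPM in G2/M-high cells, against 10.9, 9.87, 3.79 and 6.89 CPM in G2/M-low cells, at most 11 CPM in any sum. The direction of this list depended on the comparison cells. Against the bottom 25% of the score in place of the bottom 50%, 1 histone gene fell and 3 rose. HIST1H1E then had a log2 fold of 0.29 (adjusted p = 0.0369, against 3.8e-14 to 0.449 over all alternatives) and HIST1H1D one of -0.04 (adjusted p = 0.904, the highest over its alternatives). Copies of these genes are close in sequence, and how reads were shared among them is not stated in the labels.

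The levels of these lists were also followed along the score. Cells of each labelling group were cut into 10 deciles by score, decile 1 being the lowest, and the counts of each decile were summed. As a mean of the 4 groups, the 5 G2/M lists had 13732 CPM in decile 1, 17168 in decile 5 and 27498 in decile 10. S-phase genes had 9434 CPM in decile 1, 10015 in decile 3 and 5738 in decile 10, and peaked in decile 2 or 3 in each group. Histone genes had 512 CPM in decile 1, 1299 in decile 5, 1352 in decile 7 and 509 in decile 10, and peaked between decile 5 and decile 7 in each group. HIST1H1E, for one, had 68.3 CPM in decile 1, 349 in decile 7 and 77.0 in decile 10, and HIST1H4C had 58.7, 265 and 81.3 CPM there. The G2/M-low cells held both cells low in histone RNA and cells high in it. E2F1 had 56.8 CPM in decile 1, 60.4 in decile 2 and 8.81 in decile 10, and AURKA 13.2, 19.5 and 261 CPM. These levels are a description, with no test, since the deciles share the ranking that chose the cells.

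**Figure D3:**
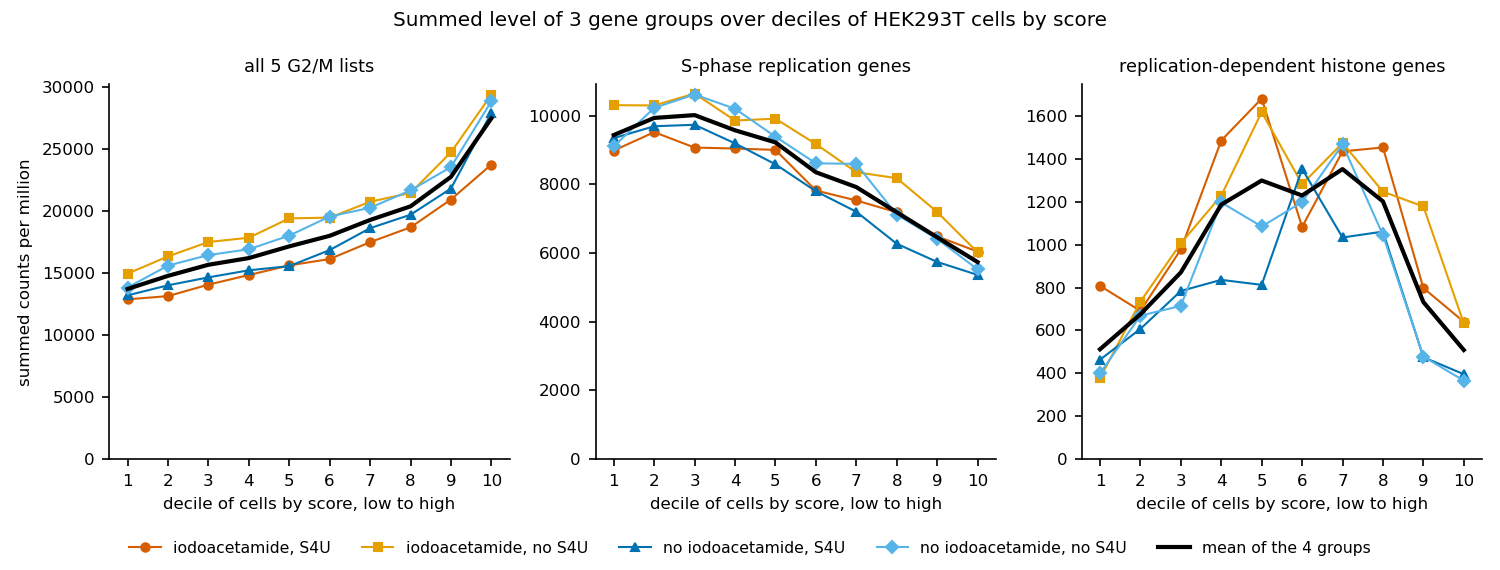
Summed CPM (vertical axis, separate scale in each panel) of the 5 G2/M lists, the S-phase list and the histone list in deciles of HEK293T cells ranked by score, lowest at left, for each labelling group (coloured) and their mean (black). The G2/M lists climb to 27498 CPM in decile 10, S-phase genes peak in decile 2 or 3, and histone genes are highest in the middle deciles and low at both ends.

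Genes of the centrosome moved a little. Of 21, 7 rose and none fell, against 9.9% and 10.4% of all genes tested, with a median log2 fold of 0.14. CEP350, a scaffold that anchors microtubules, averaged 378 ± 85.2 CPM in G2/M-high cells and 273 ± 58.1 CPM in G2/M-low cells, CDK5RAP2, which recruits microtubule nucleators, averaged 188 ± 9.86 CPM in G2/M-high cells and 143 ± 9.52 CPM in G2/M-low cells, and PLK4, the kinase that starts centriole duplication, averaged 52.8 ± 8.89 CPM in G2/M-high cells and 41.0 ± 2.29 CPM in G2/M-low cells (SD, n = 4 groups). The log2 folds were 0.47, 0.40 and 0.37. Without the group given iodoacetamide and no S4U, and with DESeq2, 4 of the list rose, and PLK4 then did not pass (adjusted p = 0.203 and 0.289, the range over its alternatives being 0.00233 to 0.289). Of 30 nuclear pore and transport genes, 5 rose and 6 fell, against 9.9% and 10.4% of all genes tested, with a median log2 fold of -0.02. NUP98, a pore component released early in mitosis, had 171, 201, 175 and 225 CPM in G2/M-high cells, against 129, 169, 149 and 169 CPM in G2/M-low cells (log2 fold 0.32, adjusted p = 1.91e-05). AHCTF1, which seeds pores on chromatin, had a log2 fold of 0.27 and NUP62 one of -0.24, and neither passed with DESeq2. Without the group given iodoacetamide and no S4U, 1 pore gene rose and 2 fell.

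Housekeeping groups differed by small amounts, and over all genes tested 9.9% rose and 10.4% fell. Of 81 tested ribosomal protein genes of the cytosol (of 87), 13 fell and none rose, with a median log2 fold of -0.05. RPS14 had 695, 514, 637 and 527 CPM in G2/M-high cells, against 781, 604, 687 and 572 CPM in G2/M-low cells (log2 fold -0.16, adjusted p = 0.000894), with overlapping classes. RPL35A and RPL27 both had log2 folds of -0.14. DESeq2 called none of the 81, and 1 fell without the group given S4U and iodoacetamide and 4 without the group given iodoacetamide alone. Of 18 tested glycolysis genes (of 19), 5 fell and none rose: LDHA, lactate dehydrogenase, averaged 574 ± 72.6 CPM in G2/M-high cells and 686 ± 75.1 CPM in G2/M-low cells (SD, n = 4 groups), ALDOA, aldolase, fell by 0.22 and TPI1 by 0.13 on the log2 scale. DESeq2 called 3 of these fallen.

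Stress and immediate early genes were counted next. Of 17 tested heat shock and chaperone genes (of 18), 7 rose and 4 fell. DNAJB1, a co-chaperone of HSP70, had 134, 95.9, 148 and 123 CPM in G2/M-high cells, against 82.2, 73.7, 78.6 and 75.1 CPM in G2/M-low cells (log2 fold 0.66 ± 0.079, adjusted p = 2.83e-11), with no overlap between the classes. BAG3, a partner of HSP70 in clearing damaged proteins, averaged 55.5 ± 6.20 CPM in G2/M-high cells and 36.8 ± 2.02 CPM in G2/M-low cells (SD, n = 4 groups). HSPA1B, an inducible HSP70 gene with a near-identical copy, had 209.7, 1041, 636 and 1256 CPM in G2/M-high cells, against 171, 893, 496 and 849 CPM in G2/M-low cells (log2 fold 0.37 ± 0.041, adjusted p = 1.54e-12). Its level differed far more between labelling groups than between classes and was lowest in the group with S4U and iodoacetamide, so the classes overlapped across groups. The fallen members were HSPB1, HSPE1, HSP90AB1 and HSPD1, by 0.33, 0.27, 0.23 and 0.20 on the log2 scale. DESeq2 called 4 of the list risen, as did the fit without the group given S4U and iodoacetamide. Of 10 tested immediate early genes (of 23), KLF6 and IER5 rose and CYR61 fell, against 9.9% risen and 10.4% fallen over all genes. KLF6 averaged 34.2 ± 8.002 CPM in G2/M-high cells and 20.8 ± 3.39 CPM in G2/M-low cells and IER5 averaged 44.6 ± 6.78 CPM in G2/M-high cells and 28.1 ± 4.98 CPM in G2/M-low cells (SD, n = 4 groups). CYR61 (log2 fold -0.77) did not pass with DESeq2. Of 13 HEK293T markers, NEFM, ZIC2 and LIN28B rose and PAX2, GAL, SOX4 and CDH2 fell, while DESeq2 called none risen and 1 fallen, and 1 rose when any group but that with neither S4U nor iodoacetamide was left out. PAX2, a kidney transcription factor, had 2.70, 1.89, 2.06 and 6.81 CPM in G2/M-high cells, against 5.11, 7.81, 5.68 and 7.24 CPM in G2/M-low cells, and its log2 fold of -1.002 (adjusted p = 0.0254) did not pass without the group given iodoacetamide alone (adjusted p = 0.365, the range over its alternatives being 0.00499 to 0.365). GAL, a neuropeptide, averaged 105 ± 15.01 CPM in G2/M-high cells and 139 ± 19.6 CPM in G2/M-low cells (SD, n = 4 groups).

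Among genes outside the lists, the highest log2 fold was that of PIF1 (ENSG00000140451.8), a DNA helicase, which had 25.9, 20.8, 33.7 and 26.2 CPM in G2/M-high cells, against 1.60, 2.76, 0.946 and 3.45 CPM in G2/M-low cells (log2 fold 3.44 ± 0.25, adjusted p = 3.39e-22). PIF1 had 231 counts in all sums together and passed the filter on low counts through its G2/M-high sums. Its fold and rank therefore rest on few G2/M-low counts. DEPDC1 had 305, 423, 338 and 405 CPM in G2/M-high cells, against 58.5, 101, 61.5 and 88.5 CPM in G2/M-low cells (log2 fold 2.23 ± 0.063, adjusted p = 9.24e-55), and FAM83D, a spindle protein that aids chromosome alignment, averaged 71.1 ± 12.7 CPM in G2/M-high cells and 16.4 ± 2.45 CPM in G2/M-low cells (SD, n = 4 groups). At the other end stood ZNF367, a zinc finger factor, which averaged 36.0 ± 5.81 CPM in G2/M-high cells and 111 ± 24.9 CPM in G2/M-low cells, CCDC64, an adaptor of the dynein motor, with log2 fold -1.59, SYTL4, a secretory granule protein, with -1.46, and AC007092.1 (ENSG00000233723.3), with -1.71. These last genes were thinly counted. CCDC64 had 3.23 to 8.25 CPM in G2/M-high and 15.7 to 22.7 CPM in G2/M-low sums, and SYTL4 2.75 to 8.09 and 14.7 to 18.9 CPM. Both passed the filter on low counts through their G2/M-low sums. AC007092.1 had 4.81 to 5.76 CPM in G2/M-high and 11.8 to 26.9 CPM in G2/M-low sums. RP11-120I21.2 had 4.31, 8.31, 2.06 and 7.86 CPM in G2/M-high cells, against 6.71, 33.1, 9.46 and 13.1 CPM in G2/M-low cells. Its value was highest in the G2/M-low cells given iodoacetamide alone, and without that group its log2 fold of -1.48 became -0.99 (adjusted p = 0.0512, the range over its alternatives being 1.87e-09 to 0.161).

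G2/M-high cells held more counts. The median was 7321, 9841, 11888 and 12213.5 whole counts per cell in G2/M-high cells, against 6413, 7748, 8515 and 9866 in G2/M-low cells. The ratio of medians was 1.14, 1.27, 1.40 and 1.24, a mean of 1.26 ± 0.105 (SD, n = 4 groups), above 1 in 4 of 4 groups (exact two-sided sign-flip permutation test, p = 0.13, the smallest that 4 pairs allow). Total counts are the denominator of the score. Of the G2/M-low cells, 17, 10, 5 and 8 had no count of any score gene. CPM removes the difference in total counts, so more RNA of a gene per cell and a larger share of the cell's RNA cannot be told apart from CPM alone. Intronic reads made up 30.9%, 26.9%, 35.2% and 31.0% in G2/M-high cells, against 32.4%, 28.9%, 37.7% and 32.5% in G2/M-low cells, a mean difference of -1.89 ± 0.487 percentage points, lower in 4 of 4 groups (exact two-sided sign-flip permutation test, p = 0.13).

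New RNA was read in the 229 G2/M-high and 457 G2/M-low cells that had both S4U and iodoacetamide, which is 1 group, so these values have no replicate check and no test. Intervals are exact 95% intervals and cover counting error only. Over all human counts, 55.02% (54.95 to 55.09) were new in G2/M-high cells and 54.63% (54.58 to 54.69) in G2/M-low cells. The difference of 0.384 points was 0.0930 points against the bottom 25% of the score, 0.712 with scores of cells thinned to 3000 counts and 0.7315 with cells of at least 5000 counts. Without S4U or without iodoacetamide the called new share was 1.25%, 1.00% and 0.873% in G2/M-high cells and 1.24%, 1.04% and 0.903% in G2/M-low cells, the background of the call. Of 5129 genes with at least 100 whole counts in each class, the new share was over 10 points higher in G2/M-high cells for 88 (1.72%) and over 10 points lower for 198 (3.86%), and the median difference was -0.451 points.

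G2/M genes did not share 1 pattern in new RNA. Of 104 genes of the 5 G2/M lists with enough counts, 52 had a higher new share in G2/M-high cells, against 46.1% of all genes compared, 9 by over 10 points, 4 were lower by over 10 points, and the median difference was 0.04 points. That median was -2.15 points against the bottom 25% of the score and 0.863 points with scores of cells thinned to 3000 counts. Summed over the 104, new CPM (new counts over all whole counts of the class) was 1.56 (1.53 to 1.58) times as high in G2/M-high as in G2/M-low cells, and pre-existing CPM (whole minus new) 1.36 (1.33 to 1.39) times as high. DLGAP5, a microtubule bundler of the spindle, had the largest positive difference in new share of the 5129 genes compared. Its new share was 63.2% (58.7 to 67.5, 489 counts) in G2/M-high cells and 32.4% (27.2 to 37.9, 309 counts) in G2/M-low cells. Its new counts were 5.19 (4.13 to 6.57) times and its pre-existing counts 1.45 (1.18 to 1.78) times as high in G2/M-high cells. For PTTG1, the securin that holds separase inactive, the new share was 45.1% (37.9 to 52.4, 193 counts) in G2/M-high cells and 20.4% (15.1 to 26.6, 201 counts) in G2/M-low cells. For BIRC5, the passenger protein survivin, it was 47.9% (44.4 to 51.5, 799 counts) in G2/M-high cells and 27.4% (24.5 to 30.5, 876 counts) in G2/M-low cells. For HMMR it was 69.2% (64.4 to 73.7, 399 counts) in G2/M-high cells and 50% (43.6 to 56.4, 244 counts) in G2/M-low cells, and for the chromosome-bound kinesin KIF4A 66.5% (61.5 to 71.2, 376 counts) in G2/M-high cells and 49.1% (43.6 to 54.6, 334 counts) in G2/M-low cells. PTTG1 and BIRC5 were alike in that new counts were 3.57 (2.43 to 5.30) and 2.68 (2.28 to 3.17) times as high, while the intervals of the pre-existing ratio, 1.113 (0.863 to 1.43) and 1.099 (0.969 to 1.25), both include 1. The rest of the 8 highest were PRR11, at 63.3% in G2/M-high and 38.3% in G2/M-low cells, LAPTM4A, at 41.6% and 23.9%, and COMMD2, at 83.3% and 65.7%.

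In other mitotic genes both new and pre-existing RNA were higher in G2/M-high cells, though not always by the same ratio. For CKS2 the new share was 84.6% (81.2 to 87.6, 513 counts) in G2/M-high cells and 88.6% (84.3 to 92.0, 289 counts) in G2/M-low cells, and new and pre-existing counts were 2.85 (2.44 to 3.34) and 4.02 (2.65 to 6.24) times as high in G2/M-high cells. For CDK1 it was 78.0% (73.6 to 82.0, 395 counts) in G2/M-high cells and 83.1% (78.1 to 87.4, 267 counts) in G2/M-low cells. CENPE, with the largest new ratio of the 104, had new counts 5.24 (4.55 to 6.05) times and pre-existing counts 2.83 (2.30 to 3.49) times as high, and these intervals did not overlap. AURKA, PLK1 and UBE2C had fewer than 100 counts in G2/M-low labelled cells and were not compared.

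In S-phase genes the ratio of G2/M-high over G2/M-low levels was lower for new than for pre-existing RNA. Of 40 replication genes with enough counts, 3 had a higher new share in G2/M-high cells (46.1% of all genes did), 18 were over 10 points lower and none over 10 points higher, with a median difference of -8.76 points. Summed, 53.9% of their counts were new in G2/M-high cells and 66.8% in G2/M-low cells. Their new counts were 0.578 times and their pre-existing counts 0.994 times as high in G2/M-high cells. For PCNA the new share was 50.5% (44.6 to 56.4, 287 counts) in G2/M-high cells and 75.3% (71.8 to 78.5, 668 counts) in G2/M-low cells, with new counts 0.485 (0.39996 to 0.584) times and pre-existing counts 1.45 (1.15 to 1.82) times as high. For HELLS, a chromatin remodeller of DNA methylation, it was 43.1% (38.9 to 47.4, 540 counts) in G2/M-high cells and 69.5% (66.8 to 72.05, 1239 counts) in G2/M-low cells. For GINS2, a subunit of the replicative helicase, it was 32.0% (23.9 to 40.9, 125 counts) in G2/M-high cells and 55.5% (49.9 to 61.0, 326 counts) in G2/M-low cells. FANCI of the Fanconi pathway was at 32.8% in G2/M-high and 58.3% in G2/M-low cells, KIAA0101, a PCNA-binding factor, at 19.3% and 44.5%, and WDHD1, which couples the helicase to DNA polymerase, at 59.7% and 82.3%. FANCI did not pass the whole RNA test, and its new counts were 0.546 (0.454 to 0.655) times and its pre-existing counts 1.56 (1.34 to 1.83) times as high in G2/M-high cells. The lowest differences of all genes compared belonged to SYNE2, a nuclear envelope protein, at 23.5% (20.02 to 27.3, 544 counts) in G2/M-high cells and 55.8% (52.2 to 59.3, 796 counts) in G2/M-low cells, and TBX3, a T-box factor, at 55% (45.7 to 64.1, 120 counts) in G2/M-high cells and 86.7% (78.6 to 92.5, 105 counts) in G2/M-low cells. For TBX3 new counts were 1.22 (0.874 to 1.69) times and pre-existing counts 6.48 (3.55 to 12.6) times as high. Ribosomal protein genes, long lived as a class, had a low new share in both classes, a median over 79 genes of 15.9% in G2/M-high and 14.2% in G2/M-low cells, higher in G2/M-high cells for 67 of 79 (46.1% of all genes compared).

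**Figure D4:**
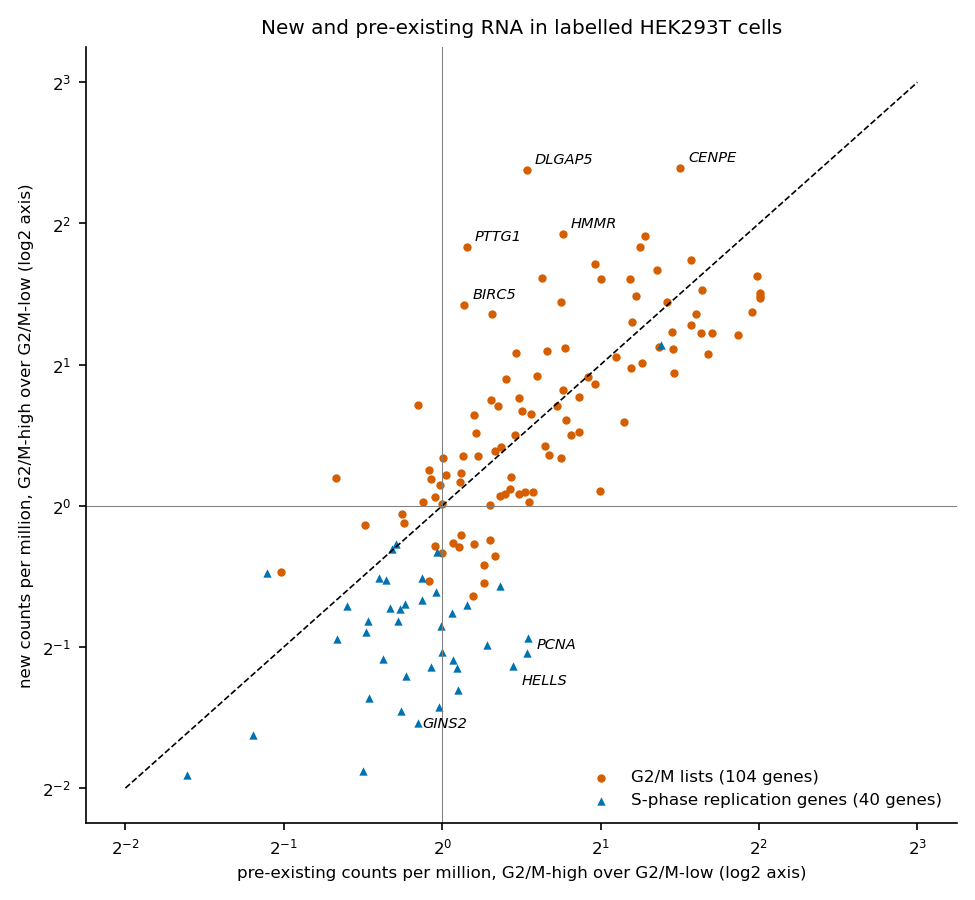
Ratio of CPM in G2/M-high over G2/M-low HEK293T cells with S4U and iodoacetamide, for pre-existing RNA (horizontal, log2 axis) and new RNA (vertical, log2 axis), 1 point a gene, for 104 genes of the G2/M lists and 40 S-phase genes. G2/M genes scatter about the dashed line of equal ratios, with DLGAP5, PTTG1 and BIRC5 well above it, and nearly all S-phase genes lie below it.

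Few class differences were called as dependent on S4U. A class difference that depended on S4U was called for 8 genes of 12863 tested, 3 higher (0.0233%) and 5 lower (0.0389%) with S4U, and 743 genes had an unadjusted p under 0.05. SLIT2 (ENSG00000145147.15), a secreted guidance ligand of ROBO receptors, had 1069, 1589, 1370.2 and 1676 CPM in G2/M-high cells, against 1125, 2234, 1398 and 2509.6 CPM in G2/M-low cells. Its log2 fold was -0.08 and -0.02 in the groups with S4U, against -0.49 and -0.58 in those without (difference 0.49 ± 0.057, edgeR adjusted p = 1.36e-13). In G2/M-high and G2/M-low cells alike its level was lower in the groups with S4U than in their counterparts without it. RP11-541P9.3 (ENSG00000250061.1) had 16.7, 17.8, 21.3 and 64.4 CPM in G2/M-high cells, against 16.3, 7.81, 19.4 and 11.03 CPM in G2/M-low cells, with log2 folds of 0.03 and 0.14 with S4U, against 1.110 and 2.46 without (difference -1.80 ± 0.35, adjusted p = 0.00106), and did not pass against the bottom 25% of the score (adjusted p = 0.278, the range over its alternatives being 0.000408 to 0.382). It is annotated as an antisense gene, and whether counting used the strand is not stated in the labels. No class difference depended on iodoacetamide at the threshold in edgeR, 0% of genes in either direction, with 604 genes at an unadjusted p under 0.05. DESeq2 was not run for these interactions, and their fit left fewer residual degrees of freedom than the class comparison. The small counts of calls therefore do not show that other class differences were the same with and without S4U or iodoacetamide. The lowest adjusted p, 0.0802, was that of HMMR, whose log2 fold was 1.45 and 1.66 in the groups with iodoacetamide, against 2.19 and 2.17 in those without (difference -0.61 ± 0.14).

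The same rule in A549 gave 1854 G2/M-high and 3704 G2/M-low cells among 7404, summed by dexamethasone time. A549 cells held a median of 27080.5 whole counts, more than HEK293T cells. Within A549, 3828 (24.7%) of 15503 genes were higher and 3783 (24.4%) lower in G2/M-high cells. The class difference was higher in HEK293T than in A549 for 662 genes (4.27%) and lower for 1519 (9.8%). With the bottom 25% of the score as the low class in both lines, 1361 were higher and 1107 lower, so the balance of directions turned round. With A549 cells scored after thinning to the HEK293T median of counts, 641 were higher and 1491 lower. Cell line, S4U time and dexamethasone differ together between the samples and cannot be told apart.

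The median log2 fold of the G2/M lists was 0.66 in HEK293T and 1.70 in A549, and the difference passed as lower in HEK293T for 117 of 137 and as higher for 2. For the spindle list the medians were 1.03 in HEK293T and 2.24 in A549, lower for 35 of 36. HMMR had a log2 fold of 1.82 in HEK293T and 3.63 in A549 (difference -1.81 ± 0.2, adjusted p = 5.55e-06), the lowest difference among named genes. CENPE had 2.18 in HEK293T and 3.51 in A549, CCNA2 1.12 and 2.74, and PLK1 2.70 and 3.78. AURKA, at 3.04 in HEK293T and 3.39 in A549, did not pass (adjusted p = 0.233). A member with a higher difference in HEK293T was CDC14A, a phosphatase gene of mitotic exit, at 0.37 in HEK293T and -0.36 in A549 (adjusted p = 0.00445). The lowest G2/M-high score was between 0.302% and 0.3887% of counts in the HEK293T groups and between 0.725% and 0.806% at the A549 times. The classes also lay further apart in A549. Median scores there were 0.910% to 1.00% in G2/M-high and 0.0532% to 0.183% in G2/M-low cells. In HEK293T they were 0.406% to 0.532% and 0.102% to 0.164%. The part of these gaps in the difference between lines was not tested.

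The median log2 fold of the S-phase list was -0.68 in HEK293T and -0.44 in A549, and the difference passed as lower in HEK293T for 20 of 53 members and did not pass for the other 33. DTL had -1.75 in HEK293T and -1.04 in A549 (adjusted p = 0.00337), MCM5 -1.61 and -1.12 (adjusted p = 0.0238), and UNG -1.85 and -1.86 (adjusted p = 0.976). Genes of homologous recombination had a median of -0.35 in HEK293T and 0.11 in A549, with 15 of 27 lower, and nuclear pore genes -0.05 in HEK293T and 0.35 in A549, with 26 of 30 lower. The ends of the comparison were taken among genes with adjusted p under 0.05 and at least 200 counts over the HEK293T sums. That minimum did not apply to A549 counts. The highest differences among these genes were RP11-259N19.1, at -0.13 in HEK293T and -2.73 in A549, CTH, an enzyme of cysteine synthesis, at 0.09 and -1.94, and MAP1A, a microtubule-associated protein, at -0.22 and -1.97. All 3 had lower levels in A549 than in HEK293T. RP11-259N19.1 had 11 to 18.9 CPM in HEK293T G2/M-high sums and 13.1 to 19.3 CPM in G2/M-low sums, against 0 to 0.449 CPM in A549 G2/M-high sums and 0.917 to 1.95 CPM in G2/M-low sums. CTH had 0.612 to 1.35 CPM in G2/M-high and 3.09 to 5.44 CPM in G2/M-low sums of A549, and MAP1A 1.295 to 4.61 CPM and 3.45 to 19.5 CPM. The lowest after HMMR were CTD-2510F5.6, at 0.99 and 2.79, and AC007092.1, at -1.74 in HEK293T and 0.04 in A549, where it had 0.984 to 2.45 CPM in G2/M-high and 0.753 to 2.37 CPM in G2/M-low sums.

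**Figure D5:**
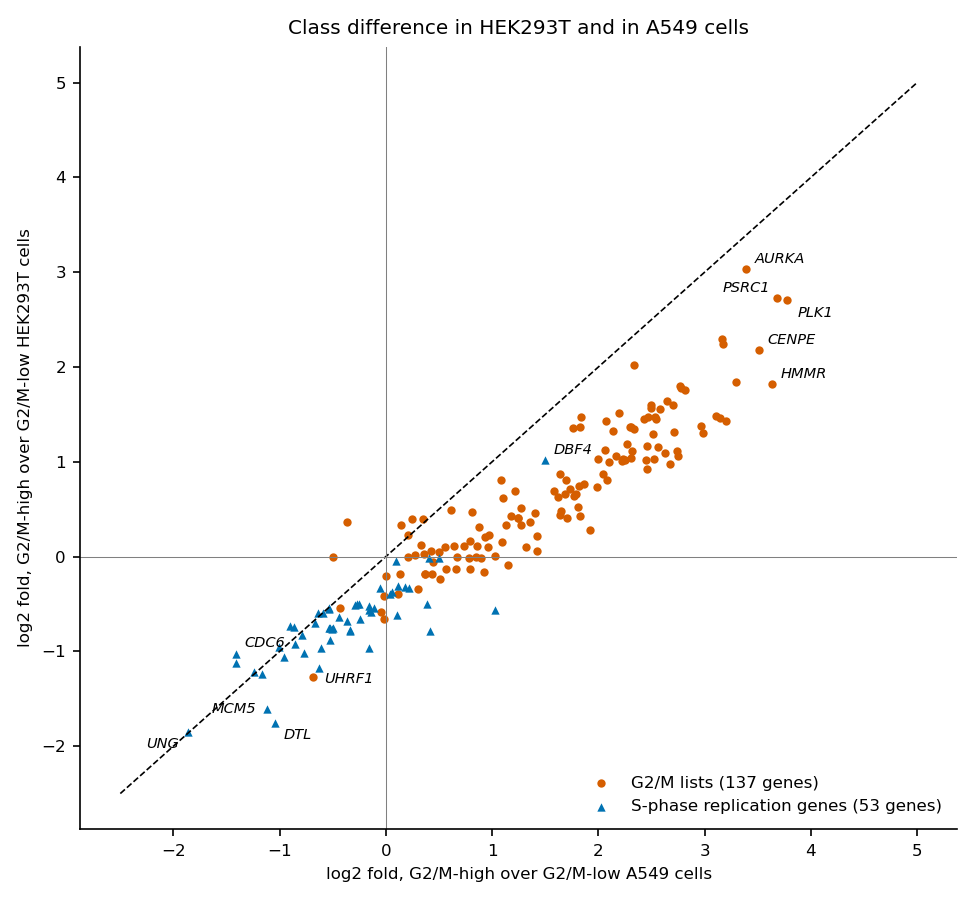
Log2 fold of whole RNA in G2/M-high over G2/M-low cells in A549 (horizontal axis) and in HEK293T (vertical axis), 1 point a gene, for 137 genes of the G2/M lists and 53 S-phase genes, with a dashed line at equal folds. Most G2/M genes lie below the line, such as HMMR at 1.82 in HEK293T and 3.63 in A549, while S-phase genes such as UNG and CDC6 lie near it or below.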

How the data were processed

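Upstream tools, per the submitters' processing notes, were STAR 2.5.2b, Trim Galore 0.4.1, Picard 1.105 and SAMtools 1.3, on hg19 and mm10. The authors deposited raw counts per gene and cell for whole and for newly synthesised poly(A) RNA, not normalized. How new molecules were called or duplicates collapsed is not stated in the labels. Intronic shares were computed from exon and intron reads of each cell, and the fraction of mutated reads that the authors deposited was not used.

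Whole counts were summed per labelling group and class and compared with edgeR 4.0.16 in R 4.3.3 (quasi-likelihood test, TMM, filterByExpr, labelling group as block, 3 residual degrees of freedom, Benjamini-Hochberg adjustment over all genes tested). The filter on low counts was set by class, so a gene could pass it through the sums of a single class. Both classes of a labelling group come from that group's own wells, so the group pairs the sums. Interactions of class with S4U, iodoacetamide and cell line used the same test, with other degrees of freedom. The S4U and iodoacetamide terms were added to the fit of the same sums, which left fewer than 3 residual degrees of freedom. DESeq2 1.42.0 and the settings in the closing section were alternatives, and the code was tested on simulated data. Mixed-species cells and 54 human cells without a group were left out, and no doublet caller was run.

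The members, gene lists and tests were chosen with earlier results of these data known. The genes named were, first, the 12 highest and 12 lowest log2 folds among genes with adjusted p under 0.05, at least 200 counts and 1 sign in every group. To these were added the 3 largest passing changes of each list, the 8 highest and 8 lowest differences in new share among genes with at least 100 counts in both classes, the 3 highest and 3 lowest A549 interactions, and the lowest adjusted p of the S4U and iodoacetamide interactions. The A549 interactions were taken among genes with adjusted p under 0.05 and at least 200 counts over the HEK293T sums. Other list members were picked for their role after their values were seen. 1 gene that this rule names is not reported here. Promoter sequences and coordinates were not used here.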

Additional observations from a re-analysis of the deposited data

Results flagged for a closer look

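The class difference was not the same in HEK293T and A549 for the 6 genes named at the ends of that comparison, each past the threshold in the edgeR interaction test. The log2 fold in HEK293T minus that in A549 was 2.60 for RP11-259N19.1, 2.03 for CTH and 1.75 for MAP1A. It was -1.81 for HMMR, -1.80 for CTD-2510F5.6 and -1.79 for AC007092.1. Levels in A549 were low for RP11-259N19.1, with 0 to 0.449 CPM in G2/M-high and 0.917 to 1.95 CPM in G2/M-low sums, for CTH, with 0.612 to 1.35 and 3.09 to 5.44 CPM, and for AC007092.1, with 0.984 to 2.45 and 0.753 to 2.37 CPM.

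Within HEK293T, the class difference depended on S4U for SLIT2, with a difference of 0.49 on the log2 scale, and for RP11-541P9.3, with -1.80. Both were picked out by the edgeR test of that interaction. Among the named genes, no labelling group's log2 fold stood apart from the other 3 by Dixon's criterion at 95%.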

How the results depend on the processing

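DESeq2 called 379 genes higher and 380 lower, and the fit with no replicate block, which drops the pairing by labelling group, called 203 higher and 247 lower. Leaving out 1 group gave 794 to 1124 higher and 928 to 1175 lower. Without the block, 19 named genes did not pass, 76 genes of the G2/M lists rose and 35 of the S-phase list fell, and no histone, ribosomal protein or pore gene passed. GEO's labels give no replicate numbers beyond the labelling groups.

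The S4U interaction called 1 gene higher and 0 lower with scores of cells thinned to 3000 counts, and 2 lower against the bottom 25% of the score. The iodoacetamide interaction called 1 gene higher against the bottom 25%, with thinned scores, and with cells of at least 5000 counts, where 1 was also lower, HMMR (-0.63, adjusted p = 0.0251, against 0.0251 to 0.826 over its alternatives). Against A549, 1361 genes were higher and 1107 lower with the bottom 25% as the low class, so that higher calls outnumbered lower ones, and 424 to 519 higher and 1066 to 1270 lower when 1 HEK293T group was left out, the fewest in each direction without the group given iodoacetamide and no S4U.

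The new share over all counts, 0.384 points higher in G2/M-high cells, was 0.0930 points higher against the bottom 25%, 0.712 with thinned scores and 0.7315 with at least 5000 counts. The median difference of G2/M genes was 0.863 points with thinned scores and -2.15 points against the bottom 25%, where HIST1H1E also turned to 0.29 on the log2 scale. The cause of these changes was not tested. Without 1 group, the ratio of counts per cell was 1.22 to 1.301 and the intronic difference -2.02 to -1.68 points. New shares come from 1 labelling group, and genes under 100 counts in either class were not compared.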
